A study of Mus musculus with 10 samples.

Results

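Plet1, Hal, Mfsd2a, St3gal4 and Ly6m are 5 genes that were lower in the distal colorectum of unirradiated Pdgfc knockout mice than in that of unirradiated wild-type mice. They were followed through every probe set that the array's annotation assigns to them, which gave 7 of 45101 probe sets, or 5 of 18193 measured genes. Plet1 has 3 probe sets and the other genes have 1 each. All 7 probe sets passed the filter on low signal, which kept 25883 probe sets with 2 or more of the 10 arrays above that array's median. The genes were chosen by their signals on the unirradiated arrays, and the choice named no minimum difference.

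Total RNA of whole tissue from about 1 cm above the anus was hybridised to 10 Affymetrix mouse arrays, 1 array per sample, and each value below is the log2 of a MAS5 signal. All mice were C57BL/6J. Irradiated knockout mice (Pdgfc-/-, n = 3) and irradiated wild-type mice (Pdgfc+/+, n = 3) were sampled 8 weeks after local γ-irradiation, for which the dose was 25 Gy and the dose rate 2.14 Gy/min. Unirradiated knockout mice (Pdgfc-/-, n = 2) and unirradiated wild-type mice (Pdgfc+/+, n = 2) were the controls of the same genotypes. The labels call the replicates biological and give no age or sex. Pdgfc is a platelet-derived growth factor that acts on mesenchymal cells such as fibroblasts.

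The 5 genes belong to different pathways. Plet1 is a lipid-anchored surface protein of epithelial cells, known from the trophoblast of the placenta and from progenitor cells of the hair follicle. Hal, histidine ammonia-lyase, turns histidine into urocanate and is known from liver and from the outer layers of the epidermis. Mfsd2a is a sodium-dependent transporter of lysophosphatidylcholine that carries docosahexaenoic acid across the endothelium of the blood-brain barrier. St3gal4 adds sialic acid to galactose at the ends of glycan chains and takes part in making selectin ligands on leukocytes. Ly6m is a member of the Ly6 family of small surface proteins.

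The promoters of the 4 genes with an entry in the RefSeq table are shown because their transcripts were low on the same arrays. Each line gives the 250 bases before the annotated start on the coding strand, 5′ to 3′, in the GRCm38.p6 build. They lie at chr9:50494275-50494524 (plus strand) for Plet1, chr10:93488518-93488767 (plus strand) for Hal, chr4:122961189-122961438 (minus strand) for Mfsd2a and chr9:35116865-35117114 (minus strand) for St3gal4. Capitals mark the matches to the motifs searched.
Plet1: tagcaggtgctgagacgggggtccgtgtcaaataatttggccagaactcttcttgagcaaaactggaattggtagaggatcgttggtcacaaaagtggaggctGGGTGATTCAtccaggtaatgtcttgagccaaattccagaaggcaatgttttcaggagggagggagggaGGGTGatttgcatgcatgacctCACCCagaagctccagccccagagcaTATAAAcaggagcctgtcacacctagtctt
Hal: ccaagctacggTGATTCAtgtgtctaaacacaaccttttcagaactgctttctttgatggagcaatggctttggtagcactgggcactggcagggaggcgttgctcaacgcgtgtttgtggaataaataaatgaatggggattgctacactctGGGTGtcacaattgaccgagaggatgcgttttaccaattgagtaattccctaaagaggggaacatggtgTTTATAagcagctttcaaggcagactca
Mfsd2a: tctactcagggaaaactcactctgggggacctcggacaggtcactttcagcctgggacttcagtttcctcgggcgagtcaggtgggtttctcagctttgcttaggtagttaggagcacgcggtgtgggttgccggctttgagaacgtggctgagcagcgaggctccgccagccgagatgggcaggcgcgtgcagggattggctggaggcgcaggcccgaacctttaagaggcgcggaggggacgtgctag
St3gal4: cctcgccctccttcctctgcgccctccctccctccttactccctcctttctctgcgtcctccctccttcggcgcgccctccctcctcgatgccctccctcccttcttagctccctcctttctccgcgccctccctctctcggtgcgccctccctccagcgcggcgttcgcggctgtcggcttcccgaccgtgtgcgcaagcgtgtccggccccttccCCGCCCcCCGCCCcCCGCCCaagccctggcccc

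The 9 motifs, searched on both strands, were the GC box GGGCGG, the CACCC box, the TATA box TATAAA, the CDX core TTTATG, the HNF4 core CAAAGT, the AP-1 motif TGANTCA, the GATA core AGATAA, the STAT motif TTCNNNGAA and a pair of p53 half-site cores. The windows of Plet1 and Hal each held the TATA box, 30 bases before the start in Plet1 and 28 bases before it, on the opposite strand, in Hal. Each also held the AP-1 motif, 144 bases before the start in Plet1 and 239 in Hal. The CACCC box matched 3 times in Plet1 and 1 time in Hal. In Plet1 the matches 147 and 78 bases before the start lay on the opposite strand, and the former overlapped the AP-1 match. The match in Hal also lay on the opposite strand. The GC box matched 3 times in St3gal4, all on the opposite strand and within 33 bases of the start. Mfsd2a held none of the 9. Among 32851 RefSeq promoters of the same length, 12.4% held the TATA box, 6.7% the AP-1 motif, 52.0% the CACCC box and 32.7% the GC box. The CDX core (in 10.8% of all promoters), the HNF4 core (12.6%), the GATA core (10%), the STAT motif (7.0%) and the p53 pair (0.5%) matched in none of the 4 windows. The GC content was 50.0% for Plet1, 45.6% for Hal, 61.6% for Mfsd2a and 72.8% for St3gal4, beside a median of 52.4% over all promoters. A match describes these letters only.

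The deleted gene was lower in the knockouts. The Pdgfc probe set 1419123_a_at averaged 6.40 ± 0.21 in irradiated knockout and 8.78 ± 0.24 in irradiated wild type (SD, n = 3 each), and 5.72 ± 0.47 in unirradiated knockout and 7.65 ± 0.15 in unirradiated wild type (SD, n = 2 each). No array of a knockout overlapped the wild-type arrays of the same irradiation for either Pdgfc probe set. Of all tested probe sets, 4.82% were lower in this way in irradiated knockout and 17.3% in unirradiated knockout. Array medians lay between 6.64 and 7.18, and arrays of 1 group correlated at 0.9 to 0.96. Xist and 3 Y-linked genes divided the arrays by transcript pattern. The female pattern (Xist at 13.48 to 14.18) appeared on all 3 irradiated wild-type arrays and on irradiated knockout replicate 1. The male pattern (Xist at 6.19 to 7.27) appeared on the other 6 arrays, among them every unirradiated array. In wild type, irradiation and this pattern therefore cannot be told apart. In knockout and between the irradiated genotypes, values with and without the pattern are given.

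Plet1 was very low in unirradiated knockout and far higher in irradiated knockout. Probe set 1423933_a_at read 12.40, 12.19 and 11.67 in irradiated knockout, 12.47, 13.54 and 13.78 in irradiated wild type, 7.16 and 5.34 in unirradiated knockout, and 13.99 and 12.98 in unirradiated wild type. Probe set 1454254_s_at read 11.02, 10.51 and 10.07 in irradiated knockout, 10.88, 12.20 and 12.50 in irradiated wild type, 3.33 and 2.46 in unirradiated knockout, and 12.42 and 11.10 in unirradiated wild type. Both unirradiated knockout arrays stood far below the other 8 arrays on both probe sets, whereas on 1423933_a_at all 3 irradiated knockout arrays also lay below all 5 wild-type arrays. Probe sets with the suffix _s_at can match more than 1 transcript. The third, 1423934_at, read 6.34, 7.25 and 8.29 in irradiated knockout, 7.49, 7.75 and 7.76 in irradiated wild type, 6.21 and 6.68 in unirradiated knockout, and 8.03 and 8.11 in unirradiated wild type. On this dim probe set, close to the array median, irradiated knockout spread over most of the range of the other groups.

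The unirradiated difference in Plet1, knockout minus wild type, was -7.24 ± 0.59 on 1423933_a_at and -8.87 ± 0.58 on 1454254_s_at (log2 ± SE of the fit over all arrays). These ranked second-lowest and lowest of the 25883 probe sets, whereas 1423934_at differed by -1.62 ± 0.50 and ranked 399 from the lowest. The first pair moved together over the 10 arrays (r = 0.994), and also over the 6 irradiated arrays (r = 0.995). The dim probe set followed them at r = 0.659 and 0.662 over 10 arrays and at 0.061 and 0.024 over the irradiated ones. On 1454254_s_at the unirradiated knockout signals lay between the 9.07th and 12.0th percentile of their arrays, where MAS5 values scatter widely, so the size of a difference against them is uncertain. With 16 added to each signal before the log, the difference on this probe set was -7.20.

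Hal was near the bottom of the scale in unirradiated knockout and reached like levels in both irradiated genotypes. It read 9.12, 10.29 and 9.66 in irradiated knockout, 9.72, 10.16 and 9.12 in irradiated wild type, 1.94 and 1.78 in unirradiated knockout, and 7.49 and 7.44 in unirradiated wild type. The 3 levels were separate: both unirradiated knockout arrays were lowest, both unirradiated wild-type arrays came next, and all irradiated arrays stood above them with the genotypes interleaved. The unirradiated difference was -5.60 ± 0.41, rank 6 from the lowest, and was -3.29 with 16 added to each signal. Hal was the only 1 of the 7 probe sets whose irradiated wild-type arrays all lay above the unirradiated wild-type arrays.

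Mfsd2a was low in unirradiated knockout alone. It read 8.82, 9.69 and 9.09 in irradiated knockout, 9.41, 8.58 and 8.49 in irradiated wild type, 4.67 and 5.56 in unirradiated knockout, and 8.18 and 8.97 in unirradiated wild type. The 3 other groups overlapped one another, and both unirradiated knockout arrays lay below all of them. The unirradiated difference was -3.46 ± 0.44, rank 59 from the lowest.

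St3gal4 was low in unirradiated knockout and varied widely among the replicates of the other groups. It read 7.62, 10.52 and 9.74 in irradiated knockout, 9.54, 9.51 and 8.07 in irradiated wild type, 5.91 and 5.78 in unirradiated knockout, and 11.23 and 9.53 in unirradiated wild type. The unirradiated knockout arrays were below all others, and the 3 other groups overlapped. The lowest irradiated value, 7.62, belonged to irradiated knockout replicate 1, the only knockout array with the female pattern, and the other irradiated knockout arrays averaged 10.13. The unirradiated difference was -4.53 ± 0.87, rank 15 from the lowest.

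Ly6m was bright on every array and ordered the groups in its own way. It read 10.67, 11.41 and 11.39 in irradiated knockout, 10.48, 9.73 and 10.62 in irradiated wild type, 9.58 and 9.42 in unirradiated knockout, and 11.78 and 12.48 in unirradiated wild type. No 2 groups overlapped: unirradiated wild type was highest, then irradiated knockout, irradiated wild type and unirradiated knockout, with a narrow gap between the lowest irradiated knockout array and the highest irradiated wild-type array. The unirradiated difference was -2.63 ± 0.35, rank 142 from the lowest.

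**Figure D1:**
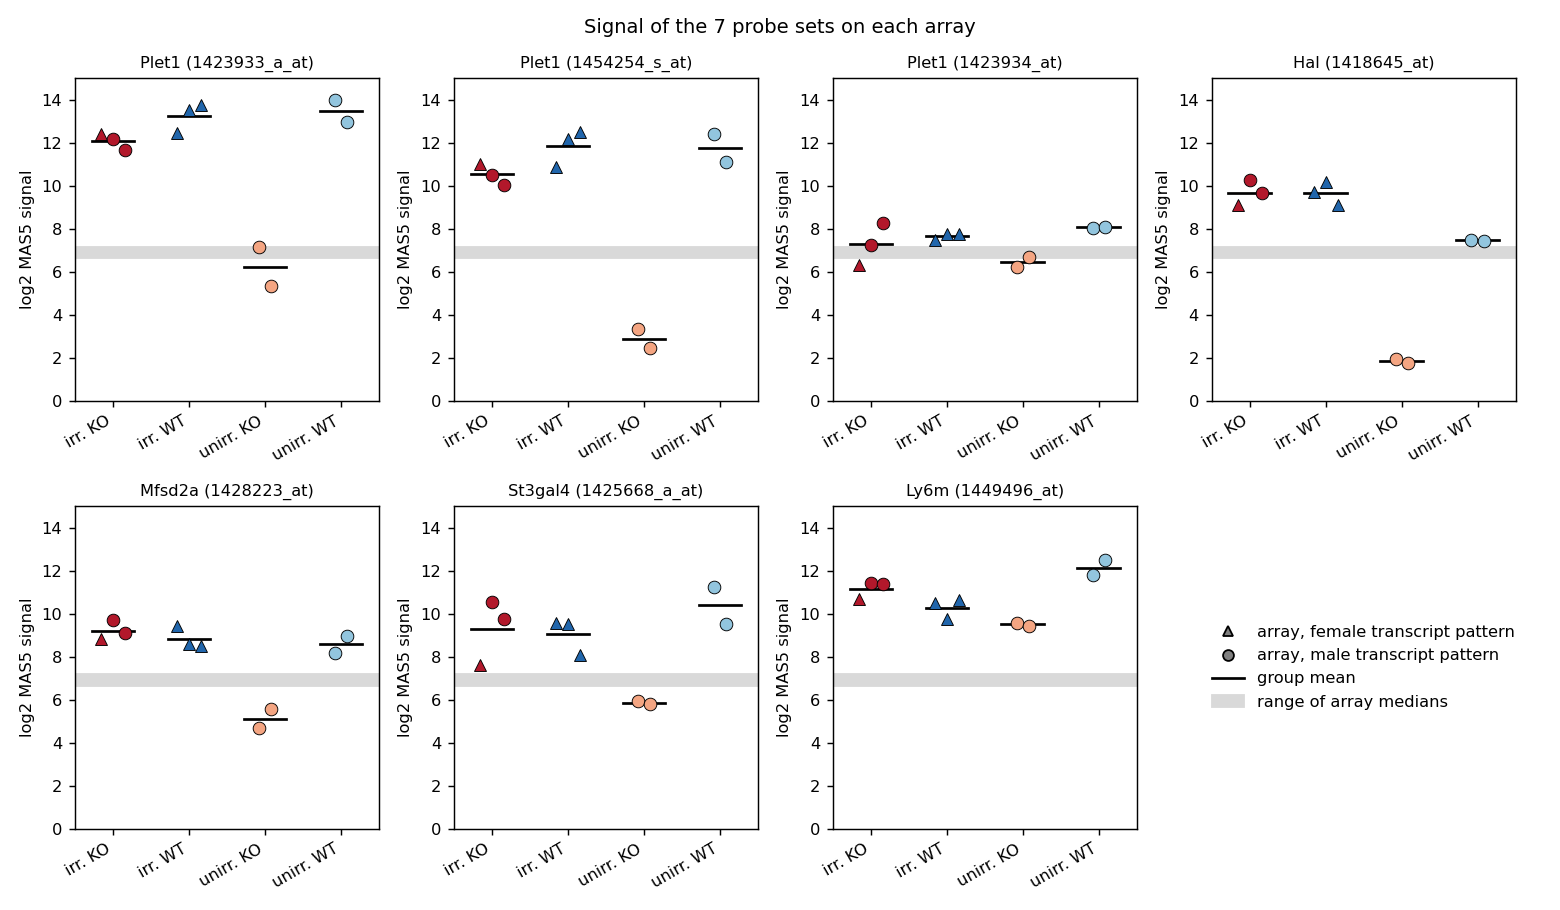
Log2 MAS5 signal (vertical axis) of the 7 probe sets in the 4 groups (irr., irradiated; unirr., unirradiated; KO, knockout; WT, wild type), with 1 point per array, triangles for the female and circles for the male transcript pattern, a line at each group mean and a grey band over the range of array medians, 6.64 to 7.18. The unirradiated knockout points lie below all other points on 6 of the 7 probe sets, and Hal reads 1.94 and 1.78 there.

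On all 7 probe sets the unirradiated knockout arrays lay below the unirradiated wild-type arrays, which 17.3% of all tested probe sets did. This contrast chose the genes, so the count is a description. On 6 of 7 probe sets, all except 1423934_at of Plet1, both unirradiated knockout arrays lay below all 8 other arrays, as they did on 6.92% of tested probe sets. Low in unirradiated knockout, raised in irradiated knockout and overlapping between the irradiated genotypes were Hal, Mfsd2a, St3gal4 and 1454254_s_at of Plet1, 4 of 7 probe sets against 6.89% of all. The choice of the genes enters these counts too. Among the tested probe sets, 4481 were lower without overlap in unirradiated knockout than in unirradiated wild type. Of these, 1791 had both unirradiated knockout arrays below all others, and 1784 showed the last pattern. Signals come from bulk tissue, in which fewer cells of a type and less RNA per cell cannot be told apart.

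The comparison of irradiated knockout with irradiated wild type used none of the arrays that chose the genes, and asks whether their low level in the knockout was also present after irradiation. In a limma fit of the 6 irradiated arrays, no member passed an adjusted p of 0.05, and neither did any of the 25883 probe sets (0% called higher and 0% lower). The deleted gene Pdgfc did not pass either, at -2.38 ± 0.22 on 1419123_a_at (limma adjusted p = 0.23) and -1.82 ± 0.27 on 1449351_s_at (limma adjusted p = 0.87). A lack of calls in this fit therefore does not show that the irradiated genotypes are alike. At an unadjusted p under 0.05, limma had 1009 probe sets, or 3.9%, among them 3 of the 7 member probe sets: 1423933_a_at and 1454254_s_at of Plet1, lower in knockout, and Ly6m, higher in knockout. The members' adjusted p was 0.999 on each of the 7 probe sets. Their median difference was 0.02, beside -0.01 over all tested probe sets.

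For Plet1 the difference was -1.18 ± 0.35 on 1423933_a_at (95% interval -2.0 to -0.35). On 1454254_s_at it was -1.33 ± 0.43 (95% interval -2.35 to -0.31), and on 1423934_at it was -0.37 ± 0.46. None passed after adjustment over all probe sets. The knockout and wild-type arrays did not overlap on 1423933_a_at and overlapped on the other probe sets of the gene. For Ly6m the difference was 0.88 ± 0.29 (95% interval 0.19 to 1.57), with the knockout arrays above the wild-type arrays. Separation downwards occurred on 1 of 7 member probe sets, against 4.82% of all, and separation upwards on 1 of 7, against 3.85% of all.

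For Hal, Mfsd2a and St3gal4 the irradiated genotypes overlapped, and no difference beyond the spread of the arrays was detectable. The difference was 0.02 ± 0.36 for Hal (95% interval -0.82 to 0.86), 0.38 ± 0.32 for Mfsd2a (-0.36 to 1.12) and 0.26 ± 0.75 for St3gal4 (-1.50 to 2.01). Differences of nearly a log2 unit or more lie within these intervals. These values moved with the transcript pattern. Between the only knockout array and the 3 wild-type arrays of the female pattern, the differences were -0.55 for Hal, -0.003 for Mfsd2a, -1.42 for St3gal4, 0.39 for Ly6m, and -0.87, -0.84 and -1.32 for 1423933_a_at, 1454254_s_at and 1423934_at of Plet1. With 1 knockout array the standard errors are 0.42 for Hal, 0.42 for Mfsd2a and 0.65 for St3gal4, and they assume that this array varies as the wild-type arrays do. The part of the pattern in these differences was not tested further.

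**Figure D2:**
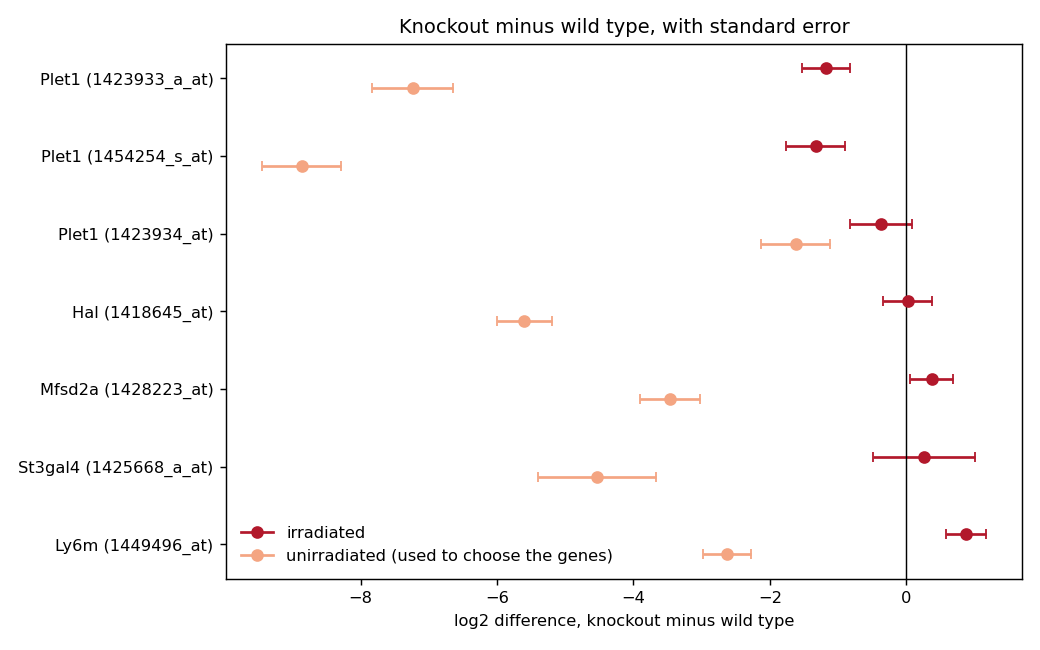
Knockout minus wild-type difference in log2 signal (horizontal axis) with the standard error of the fit as bars, for each of the 7 probe sets after irradiation (dark) and without it (light, used to choose the genes). The irradiated differences run from -1.33 to 0.88 and the unirradiated ones from -8.87 to -1.62.

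The irradiated and unirradiated groups of each genotype share the arrays that chose the genes, so the following values are descriptions without a test. In knockout, irradiated arrays lay above unirradiated ones on 6 of 7 member probe sets, as on 23.8% of all tested probe sets. The irradiated minus unirradiated difference in knockout was 5.84 ± 0.54 and 7.64 ± 0.53 on 1423933_a_at and 1454254_s_at of Plet1, 7.83 ± 0.37 for Hal, 4.09 ± 0.40 for Mfsd2a, 3.45 ± 0.79 for St3gal4 and 1.66 ± 0.32 for Ly6m. The unirradiated knockout signals of Hal and of 1454254_s_at are among the dimmest of their arrays, so the sizes of these differences are uncertain: with 16 added to each signal they were 5.42 for Hal and 5.98 for 1454254_s_at. On 1423934_at of Plet1 it was 0.85 ± 0.46 and the groups overlapped. The median over the members was 4.09, beside -0.06 over all tested probe sets.

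In wild type the same genes went separate ways. Hal was higher in irradiated than unirradiated wild type by 2.20 ± 0.37 without overlap, as 27.7% of all tested probe sets were. Ly6m (-1.85 ± 0.32) and 1423934_at of Plet1 (-0.40 ± 0.46) were lower without overlap, as 22.4% of all were. The differences were -0.22 ± 0.54 and 0.10 ± 0.53 on 1423933_a_at and 1454254_s_at of Plet1, 0.25 ± 0.40 for Mfsd2a and -1.34 ± 0.79 for St3gal4, with overlapping groups. The irradiated wild-type arrays all have the female pattern and the unirradiated ones the male pattern. On the knockout arrays with the male pattern, which match the unirradiated arrays in this respect, the irradiated means were 11.93 and 10.29 for Plet1 on 1423933_a_at and 1454254_s_at, 7.77 on 1423934_at, 9.98 for Hal, 9.39 for Mfsd2a, 10.13 for St3gal4 and 11.40 for Ly6m. All 7 lay above the unirradiated knockout values of the same probe set.

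**Figure D3:**
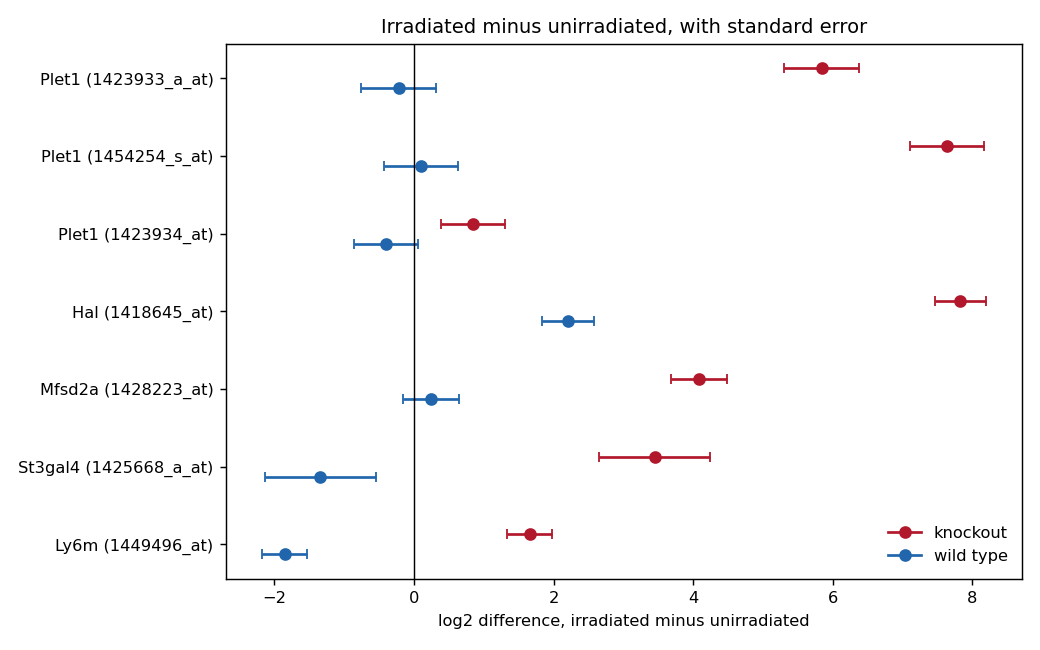
Irradiated minus unirradiated difference in log2 signal (horizontal axis) with the standard error of the fit as bars, for each of the 7 probe sets in knockout (red) and in wild type (blue). The knockout differences run from 0.85 to 7.83 and the wild-type ones from -1.85 to 2.20, of which Hal has the highest. The knockout values of Hal and 1454254_s_at, at 7.83 and 7.64, are 5.42 and 5.98 with 16 added to each signal.

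Averaged over genotypes, the irradiated minus unirradiated difference was 2.81 ± 0.38, 3.87 ± 0.37 and 0.22 ± 0.32 on 1423933_a_at, 1454254_s_at and 1423934_at of Plet1, 5.02 ± 0.26 for Hal, 2.17 ± 0.28 for Mfsd2a, 1.05 ± 0.56 for St3gal4 and -0.10 ± 0.23 for Ly6m. The low unirradiated knockout arrays enter this average, so it is given for the members without a test. Over all probe sets the same limma comparison called 4893 higher (18.9%) and 3920 lower (15.1%) at an adjusted p of 0.05. The irradiation difference in knockout exceeded that in wild type by 6.06 ± 0.77 and 7.54 ± 0.75 on the brighter Plet1 probe sets, 5.62 ± 0.52 for Hal, 4.79 ± 1.12 for St3gal4, 3.84 ± 0.56 for Mfsd2a, 3.51 ± 0.45 for Ly6m and 1.25 ± 0.65 on 1423934_at of Plet1. These values contain the contrast that chose the genes.

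Correlations between the members differed between the whole series and the irradiated arrays. Hal and Mfsd2a correlated at 0.953 over 10 arrays and at 0.527 over the 6 irradiated ones. Plet1 (1423933_a_at) and Mfsd2a correlated at 0.844 over 10 arrays and at -0.719 over the irradiated ones, and Plet1 and Ly6m at 0.613 and -0.746. Hal and St3gal4 correlated at 0.76 over all and at 0.909 over the irradiated arrays. All these points share the 10 libraries, and the 10 arrays include the low unirradiated knockout arrays by which the genes were picked.

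Over the 10 arrays, the genes most like the mean of the 5 members were Cd74, the invariant chain of MHC class II (r = 0.974), Psme1, a proteasome activator subunit (0.966), H2-DMa, which loads peptides on class II molecules (0.966), Duoxa2, a maturation factor of a dual oxidase (0.964), and the class II chains H2-Ab1 (0.964) and H2-Aa (0.962). Cd74 averaged 13.76 in irradiated knockout, 13.98 in irradiated wild type, 11.23 in unirradiated knockout and 14.06 in unirradiated wild type. H2-Ab1 averaged 13.44 in irradiated knockout, 13.65 in irradiated wild type, 10.29 in unirradiated knockout and 13.62 in unirradiated wild type. Both were low on the unirradiated knockout arrays and near level elsewhere. Likeness was ranked against genes picked for a low signal on those arrays, so the low signal of like genes there follows from the choice. Both unirradiated knockout arrays lay below all others on 6.92% of tested probe sets. These likenesses, and those of single members below, are descriptions. The difference in Psme1 was smaller, with 12.87 in irradiated knockout, 12.91 in irradiated wild type, 12.10 in unirradiated knockout and 12.94 in unirradiated wild type.

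Taken singly, Plet1 was most like Oas3 (r = 0.979), an oligoadenylate synthetase, Nlrc5 (0.975), an activator of MHC class I genes, and Cd74 (0.975). Hal was most like Gbp6 (0.985), a guanylate-binding protein, Eif4e3 (0.982), a cap-binding protein, and Iigp1 (0.982), an interferon-inducible GTPase. Gbp6 averaged 10.64 in irradiated knockout, 10.85 in irradiated wild type, 5.76 in unirradiated knockout and 9.34 in unirradiated wild type, so that it too read higher in irradiated than unirradiated wild type. Mfsd2a was most like Egfr (0.958), Hal (0.953) and Sulf2 (0.945). St3gal4 was most like Gosr2 (0.966), Rpia (0.959) and Atp7a (0.923), and Ly6m like Tec (0.922), Gch1 (0.92) and Ibtk (0.891). The genes nearest to St3gal4 varied far less than St3gal4 did: Gosr2 averaged between 10.67 and 10.90 in all 4 groups.

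**Figure D4:**
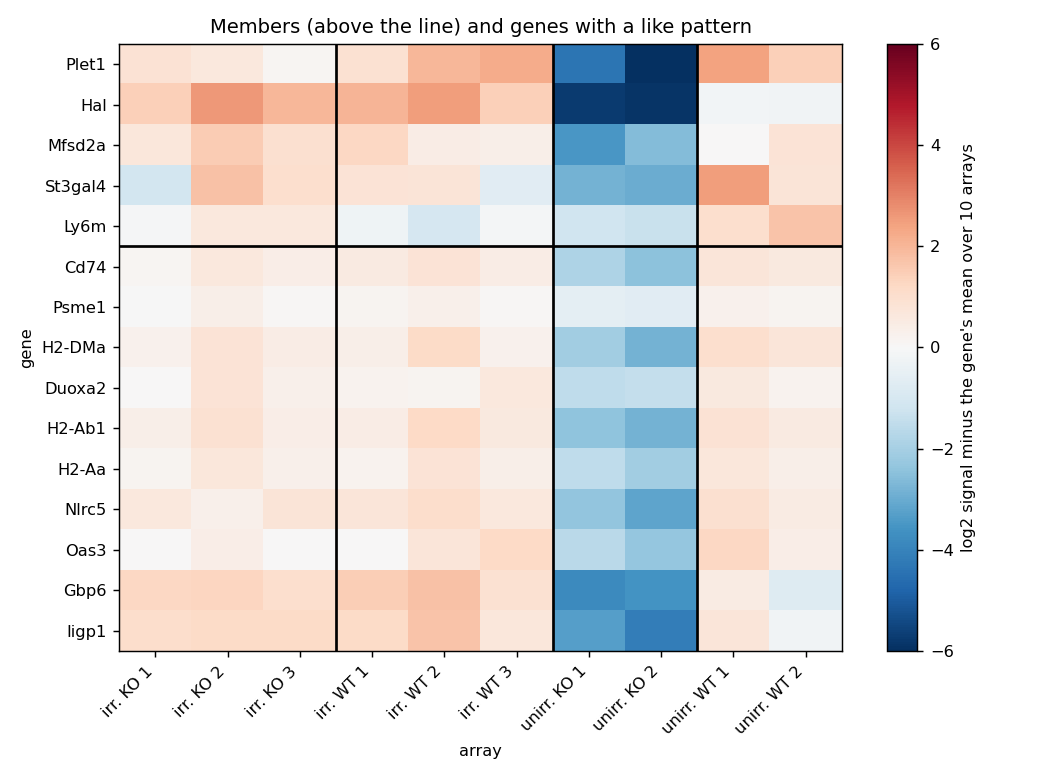
Log2 signal minus the gene's mean over 10 arrays (colour) for the 5 members, above the line, and 10 genes with a like pattern (rows), on each array (columns; irr., irradiated; unirr., unirradiated; KO, knockout; WT, wild type). The genes below the line are those named as most like the mean of the members, plus Nlrc5, Oas3, Gbp6 and Iigp1. These additions were picked from the genes nearest to Plet1 or Hal alone. Eif4e3, Egfr, Sulf2, Gosr2, Rpia, Atp7a, Tec, Gch1 and Ibtk, also nearest to single members, are not shown. The rows are a selection and do not show the whole range of like genes. The columns of unirradiated knockout replicates 1 and 2 are blue for all genes shown, darkest for Hal and Plet1.

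Relatives of the members in their own pathways were described from lists, by the limma comparison of irradiated with unirradiated arrays averaged over genotypes (18.9% of all probe sets higher and 15.1% lower) and by that of the irradiated genotypes, in which no gene of any list passed. The members themselves are left out of the list counts. The lists hold 1 probe set per gene, whereas the shares beside them are over all tested probe sets. A fit with 1 probe set per gene called 2897 of 12568 higher and 2008 lower in irradiated tissue. Every unirradiated array has the male transcript pattern and 4 of the 6 irradiated arrays the female one. The calls are therefore also given with the pattern as a covariate, a fit that called 3.83% of all probe sets higher and 1.11% lower. Only irradiated knockout holds both patterns, so the covariate's effect rests on its replicate 1 against replicates 2 and 3. The standard error for Hal was 0.37 with the covariate and 0.26 without. Whether calls lost with the covariate reflect the pattern or lower precision was not tested. Of the Ly6 and uPAR family, 12 of 19 measured genes passed as higher in irradiated tissue and none as lower, with a median difference of 1.10 beside -0.02 over all probe sets. With the covariate 3 of the 19 passed as higher. Ly6d, a keratinocyte surface protein, rose by 5.11 ± 0.34 (adjusted p = 1.0e-05) and averaged 13.03 in irradiated knockout, 13.32 in irradiated wild type, 6.38 in unirradiated knockout and 9.74 in unirradiated wild type. Lypd3 rose by 6.74 ± 0.50 and Psca by 5.85 ± 0.77, and Ly6e, an interferon-inducible member, by 0.68 ± 0.09. Between unirradiated knockout and unirradiated wild type the family's median difference was -0.01. Without overlap, 6 of the 19 were lower and 2 higher, beside 17.3% lower and 29.9% higher of all tested probe sets. Ly6d differed by -3.36, Psca by -1.74, Ly6i by -1.33, Plaur by -1.25 and Ly6e by -1.08, beside the -2.63 of Ly6m.

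Of 6 other genes of histidine and histamine metabolism, 3 passed as higher in irradiated tissue and 1 as lower, and none in either direction with the covariate. Hdc, which makes histamine from histidine, rose by 4.37 ± 0.73 (limma adjusted p = 0.0015), and Hnmt, which methylates histamine, by 1.39 ± 0.25. Carns1, which makes carnosine, rose by 1.95 ± 0.58, and Aoc1, which oxidises histamine, differed by -0.87 ± 0.18. In unirradiated knockout minus unirradiated wild type, Hdc differed by -0.98, Hnmt by 0.97, Carns1 by 1.30 and Aoc1 by 0.87, and the median of the list was 0.41. Hal differed by -5.60 in the same contrast.

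Of 20 other genes of sialic acid transfer, supply and removal, 4 passed as higher and 10 as lower in irradiated tissue, and 2 as higher and none as lower with the covariate. The sialyltransferases St8sia6 (2.77 ± 0.20), St8sia4 (2.0 ± 0.21) and St3gal5 (1.31 ± 0.22) rose, and the sialidase Neu1 fell by 1.16 (-1.16 ± 0.19). St3gal4 differed by -4.53 between the unirradiated genotypes, where the median of the other genes was 0.0, with none below the -0.58 of St6galnac1. Without overlap, 7 of the 20 were lower and 6 higher, beside 17.3% lower and 29.9% higher of all tested probe sets. Of 16 other genes of lysophospholipid transport and remodelling, 5 passed as higher and 2 as lower, and 1 in each direction with the covariate. Spns2, a sphingosine phosphate transporter, rose by 2.09 ± 0.20, Fads1, a fatty acid desaturase, rose by 0.73 ± 0.13, Lpcat2, an acyltransferase, by 0.76 ± 0.17, and Mboat1, a lysophospholipid acyltransferase, differed by -0.91 ± 0.11. Between the unirradiated genotypes 7 of the 16 were lower without overlap and none higher, with a median of -0.19. Of all tested probe sets, 17.3% were lower and 29.9% higher in this way. Lpcat4 differed by -1.59, Pnpla7 by -1.27 and Fads1 by -0.80, beside the -3.46 of Mfsd2a.

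Targets of PPAR and of fasting, which raises Mfsd2a in mouse liver, had 3 of 9 genes higher and 2 lower in irradiated tissue, and none higher and 1 lower with the covariate. Angptl4, an inhibitor of lipoprotein lipase, rose by 2.80 ± 0.52 and Acot1 by 1.72 ± 0.40, and Cpt1a, which brings fatty acids into mitochondria, differed by -0.77 ± 0.09 and Ehhadh by -0.80 ± 0.16. Between the unirradiated genotypes their median was 0.43, opposite in sign to Mfsd2a. Of 7 other hair follicle and epithelial progenitor surface genes, 5 passed as higher and none as lower, and 2 as higher with the covariate. Krt15 rose by 7.25 ± 0.71, Cd34 by 1.84 ± 0.19 Clu by 2.66 ± 0.38 and Anxa1 by 0.96 ± 0.16, and the list's median between the unirradiated genotypes was 0.42.

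Markers of several cell types differed between the groups as well. All 23 squamous epithelium and epidermis markers passed as higher in irradiated tissue, and 13 of them with the sex transcript pattern as a covariate. Their mean log2 signal ranged over 10.99 to 12.72 in irradiated knockout, 8.61 to 11.86 in irradiated wild type, 4.96 to 5.39 in unirradiated knockout and 5.04 to 5.71 in unirradiated wild type. On the unirradiated knockout arrays 3 of the 23 lay above the array median, and on the unirradiated wild-type arrays 4 to 6. Krt14 rose by 7.76 ± 0.56, Krt6a by 7.05 ± 0.41, Calml3 by 6.85 ± 0.43 and Trp63 by 6.03 ± 0.44. The summed signal of the list was 73413 to 219250 in irradiated knockout, 43640 to 131987 in irradiated wild type, 2945 to 2990 in unirradiated knockout and 3869 to 7088 in unirradiated wild type. Hal, which epidermis expresses, was higher in irradiated tissue of both genotypes, and the part of squamous tissue in this was not tested. On irradiated wild type replicate 3 the list averaged 8.61, lowest of the irradiated arrays but above all unirradiated ones. Hal read 9.12 and Plet1 (1423933_a_at) 13.78 on this array. On irradiated knockout replicate 1, where the list was highest (12.72), Hal read 9.12 and Plet1 12.40. These are single arrays and were only described.

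Absorptive colonocyte markers went down after irradiation, with 13 of 21 lower and none higher, and 4 lower with the covariate. Aqp8 fell by 2.51 (-2.51 ± 0.26), Slc9a3 by 4.24 (-4.24 ± 0.46), Cdx1 by 1.59 (-1.59 ± 0.18) and Car1 by 1.90 (-1.90 ± 0.23). Their mean signal was 10.87 to 11.71 in irradiated knockout, 10.95 to 11.12 in irradiated wild type, 12.01 to 12.37 in unirradiated knockout and 12.23 to 12.48 in unirradiated wild type. The colon epithelium of the labelled tissue was therefore present on all arrays. Between the unirradiated genotypes the list's median difference was -0.15, beside 0.09 over all tested probe sets. Without overlap, 7 of the 21 were lower and 4 higher in unirradiated knockout, beside 17.3% lower and 29.9% higher of all tested probe sets. Single markers differed either way, Slc51b by -2.05 and Slc9a3 by -1.59, Guca2a by 1.28 and Car1 by 1.07. Goblet cell markers had 1 of 11 higher, Retnlb (4.52 ± 0.74), and 4 lower, among them Sytl2, Spdef and Fcgbp, none of the 11 with the covariate, and a median difference of -0.17 between the unirradiated genotypes.

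Striated muscle markers separated the unirradiated genotypes in the direction opposite to the members. All 11 were higher in unirradiated knockout than in unirradiated wild type without overlap, with a median difference of 4.18, and 29.9% of all tested probe sets were. Their mean log2 signal was 10.83 to 12.68 in irradiated knockout, 5.62 to 12.09 in irradiated wild type, 8.77 to 9.22 in unirradiated knockout and 4.39 on both unirradiated wild-type arrays. Their summed signal was 38094 to 101803 in irradiated knockout, 1092 to 65889 in irradiated wild type, 7789 to 12496 in unirradiated knockout and 741 to 1015 in unirradiated wild type. After irradiation 8 of the 11 passed as higher, among them Ttn, Neb, Myh2 and Ryr1, and none with the covariate. Whether the muscle content had a part in the low signals of the members in unirradiated knockout was not tested.

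Dendritic cell markers had 7 of 9 genes higher in irradiated tissue, led by H2-Ab1 (1.59 ± 0.18) and the integrin Itgax (1.89 ± 0.25), and 2 with the covariate. Their mean log2 signal was 7.45 to 8.28 in irradiated knockout, 7.67 to 8.35 in irradiated wild type, 6.12 to 6.32 in unirradiated knockout and 6.69 to 6.81 in unirradiated wild type. Their summed signal was 12397 to 16791 in irradiated knockout, 13138 to 21365 in irradiated wild type, 2536 to 2751 in unirradiated knockout and 12807 to 17059 in unirradiated wild type, of which H2-Ab1 alone made 42.8% to 52.4% in unirradiated knockout and 83.4% to 86.9% in unirradiated wild type. Between the unirradiated genotypes the list's median was -0.30, and 4 of 9 were lower without overlap, as 17.3% of all tested probe sets were. H2-Ab1, which epithelium and B cells also express, differed by -3.33, Xcr1 by -1.58 and Itgax by -0.20. Their part in the members' values was not tested.

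B and plasma cell markers (8 of 8 higher, with Mzb1, Ighm, Jchain and Cd79b leading), fibroblast markers (11 of 11, Dcn, Lum, Col1a2 and Col3a1) and adipocyte markers (7 of 7, Car3, Lpl, Adipoq and Retn) all passed as higher in irradiated tissue, and 4, 10 and 3 genes of these lists did with the covariate. Between the unirradiated genotypes 5 of 8 B and plasma cell markers were lower without overlap, among them Jchain (-2.73), Cd79a (-1.90) and Mzb1 (-1.66). The B cell marker Ms4a1 (0.71) was the 1 that was higher, and Cd79b (-0.01) and Cd22 (-0.11) were near level. Jchain and Mzb1 are plasma cell genes, so the list does not show all B cell markers as lower. Of all tested probe sets, 17.3% were lower without overlap and 29.9% higher. The summed signal of this list was 11900 to 14117 in unirradiated knockout and 23175 to 24617 in unirradiated wild type. Of the adipocyte markers 6 of 7 were higher without overlap in unirradiated knockout, beside the 29.9% of all tested probe sets. Car3 differed by 5.31, Adipoq by 2.46 and Lpl by 1.11, whereas Cidec differed by -2.31, and the list's median was 0.88. The summed adipocyte signal was 6278 to 8358 in unirradiated knockout and 1534 to 1596 in unirradiated wild type. Car3 was the brightest of these genes in unirradiated knockout (mean 12.27, against 6.96 in unirradiated wild type), so it weighs most in the sums there. The part of these cells in the members' values was not tested. Blood vessel endothelium had 9 of 10 higher (6 with the covariate), with Emcn, Pecam1, Cldn5 and Vwf leading. Endothelium is the cell type best known for Mfsd2a. Its summed marker signal was 4182 to 5827 in irradiated knockout, 5112 to 6564 in irradiated wild type, 2209 to 2529 in unirradiated knockout and 1982 to 2200 in unirradiated wild type. Hair follicle and sebaceous gland markers had 5 of 8 higher, among them Trps1, Scd3, Tchh and Elovl3, and none with the covariate. Smooth muscle markers had none of 8 in either direction. Of the anal canal and gland markers only Ltf was measurable, which did not pass with the covariate and without it rose by 5.68 ± 0.95 and averaged 12.29 in irradiated knockout, 12.45 in irradiated wild type, 5.15 in unirradiated knockout and 8.23 in unirradiated wild type.

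**Figure D5:**
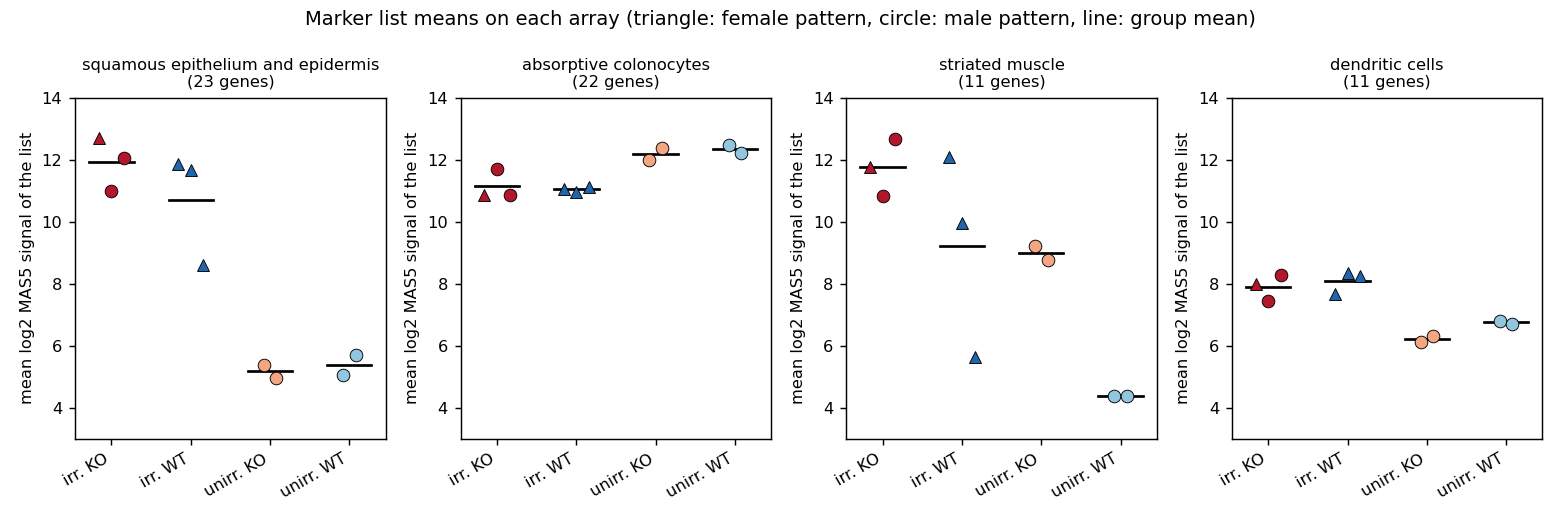
Mean log2 MAS5 signal (vertical axis) of the markers of 4 cell types in each group (irr., irradiated; unirr., unirradiated; KO, knockout; WT, wild type), with 1 point per array, triangles for the female and circles for the male transcript pattern and a line at each group mean. Squamous markers lie at 8.61 to 12.72 on irradiated and 4.96 to 5.71 on unirradiated arrays, and striated muscle markers are at 8.77 to 9.22 in unirradiated knockout against 4.39 in unirradiated wild type.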

How the data were processed

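Gene expression in distal colorectum was measured on 10 Affymetrix arrays. Per the labels' protocols, RNA was extracted with Trizol and labelled as biotinylated cRNA. The authors' signals are from MAS5, per the submitters' processing notes (the sources used here name no version). Judged from the values, the deposited table is on a log2 scale: it ran from -4.24 to 15.79, and on each array the antilogged signals had a trimmed mean (2% off either end) of 500.0. They were used as deposited. MAS5 spreads dim signals widely, and the number of arrays limits the precision.

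Probe sets were named from the platform annotation (64 controls, 34945 with 1 gene, 932 with several, 9160 with none), with 34741 symbols updated by gene ID. Promoters came from RefSeq (GRCm38.p6). No entry for Ly6m was used.

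Groups are the labels' genotypes and treatments. Tests used limma 3.58.1 (R 4.3.3) with a mean-dependent variance prior, and p-values were adjusted by Benjamini-Hochberg over 25883 probe sets, with a threshold of 0.05. Irradiated knockout and wild type were compared in a fit of their 6 arrays alone. Irradiated and unirradiated arrays, averaged over genotypes, were compared in a fit of all 10 arrays with 1 mean per group. Because the unirradiated knockout arrays that chose the members enter this comparison, the members' values are given without a p, although the design had set the test for them too. Other differences of the members are descriptions from the same fit. Intervals are 95%. Groups overlap where any array of one lies within the range of the other. The fits were tested on simulated arrays.

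Named were all member probe sets, Pdgfc, the 3 genes most correlated with each member's brightest probe set, the 6 most correlated with the mean of the members' standardized values (1 probe set per gene), and up to 4 genes per list past the threshold with the smallest p. For the lists, genes were represented by their brightest probe set, and the members were left out of the counts, a choice made after seeing the data, as was the covariate for the lists. The members and lists were chosen with earlier results of these data known. The lists were Ly6 and uPAR family, histidine and histamine metabolism, sialic acid transfer, lysophospholipid transport, PPAR and fasting targets, progenitor surface genes, and markers of 12 cell types. The same replicate number was not taken to pair the arrays. Between groups, deviations from the group means correlated at -0.174 to 0.152 for same-numbered arrays and at -0.235 to 0.206 for differently numbered ones. Alternatives were quantile normalization, a pseudocount of 16, no filter, no trend, array weights, 1 probe set per gene, the replicate number as a block, the transcript pattern of sex as a covariate, a minimum of 2-fold, all arrays in the fit, and leaving out each array.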

Additional observations from a re-analysis of the deposited data

Results flagged for a closer look

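Ly6m moved in opposite directions in the groups compared, with no overlap of arrays. Knockout minus wild type was 0.88 in irradiated tissue and -2.63 in unirradiated tissue. Irradiated minus unirradiated was 1.66 in knockout and -1.85 in wild type. The difference between these differences was not tested, because the unirradiated arrays chose the gene. All irradiated wild-type arrays have the female transcript pattern and all unirradiated arrays the male pattern, and the part of this in the values was not tested.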

How the results depend on the processing

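With irradiated knockout against irradiated wild type, the count of called probe sets was 0 under every alternative run except the sex transcript pattern as a covariate, which called 1, and 2 of the 6 fits that left out an array: the range was 0 to 2, with 2 called without irradiated knockout replicate 1 and 2 without irradiated wild type replicate 1. Averaged over genotypes, the 8813 probe sets called for irradiation became 4905 with 1 probe set per gene (12568 tested), 3583 with at least 2-fold, and 1279 with the sex covariate, of which 77.6% were higher, against 55.5% in the fit without it. The covariate's effect is estimated within irradiated knockout alone, since no other group holds both patterns. Leaving out each array gave 6368 to 9674. Quantile normalization called 9672, of which 45.9% were higher, and moved the median of all probe sets to -0.11.

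Of the genotype differences in irradiated tissue, Hal turned to -0.023 with array weights, and Hal, Mfsd2a and St3gal4 were -0.55, -0.003 and -1.42 with the sex covariate, where the value of Mfsd2a has no direction. The arrays of the female pattern alone, an alternative chosen after seeing the data, give the same values by construction. Only irradiated knockout holds both patterns, so these are not a separate result. Leaving out arrays gave -0.28 to 0.31 for Hal, -0.36 to 1.09 for St3gal4, 0.13 to 0.67 for Mfsd2a, -0.87 to 0.10 for Plet1 on 1423934_at, -1.57 to -0.92 on 1423933_a_at, -1.82 to -1.01 on 1454254_s_at and 0.61 to 1.12 for Ly6m. Of the averaged irradiation differences, St3gal4 moved to 2.73, Plet1 to 1.17 on 1423934_at and to 2.5 on 1423933_a_at, and Ly6m turned to 0.39, with the sex covariate. Leaving out single arrays gave 0.63 to 1.48 for St3gal4. Ly6m ranged from -0.27 to 0.078 without single arrays, and Plet1 on 1423934_at ranged from -0.028 to 0.46. The cause of these changes was not tested.

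The replicate numbers were not taken to pair the arrays. With the replicate number as a block, 0 probe sets were called between the irradiated genotypes and 6642 for irradiation (3881 higher and 2761 lower), and Plet1 on 1423934_at turned to -0.051 for irradiation. Deviations from the group means of same-numbered arrays of the unirradiated genotypes correlated at -0.115, and those of differently numbered ones at 0.115. With 2 arrays per group these values mirror each other by construction, so they cannot decide on a pairing.

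A pseudocount of 16 reduced the descriptions that rest on the dimmest values: the unirradiated genotype difference to -3.29 for Hal and -7.20 for Plet1 on 1454254_s_at. With 2 unirradiated arrays per genotype, the spread within those groups is poorly known.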
